A study of Mus musculus with 12 samples.

Results

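The kidney takes back almost all filtered amino acids in the proximal tubule, and the genes described here are 10 transporters that do this work, chosen by symbol from a list of known proximal amino acid transporters and matched through their Ensembl identifiers. They were 10 of the 57180 genes in the count tables, and all 10 passed the filter on low counts that left 17163 genes for testing. The libraries were made from poly(A) RNA of kidney tissue of 12 male C57BL/6J mice, young adults at the start. The mice were injected intraperitoneally once a day for 28 days. The Control group (n = 4) received only the vehicle, saline with Tween 80, the group 10CBD (n = 4) received 10 mg cannabidiol (CBD, a plant cannabinoid) per kg body weight, and the group 20CBD (n = 4) received 20 mg per kg. All groups were wild-type and differed, by their labels, only in dose, and each library came from 1 mouse.

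An amino acid crosses a proximal tubule cell through a carrier in the apical brush border that faces the filtrate and then through another in the basolateral membrane that faces the blood. Several of the carriers work only as heterodimers, in which a light chain of the SLC7 family carries the substrate and a heavy chain of the SLC3 family brings it to the membrane. Transporters of large capacity lie in the early, convoluted part of the tubule, and others, some of higher affinity, in the late, straight part. In rodents Slc7a9 and Slc6a19 are known as early genes, and Slc7a13, Slc6a18 and Slc1a1 as late genes.

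The total counted on genes was 15417867 to 23532088 per library. Counts of mitochondrial genes made up 3.53% to 23.4% of a library, and 4 libraries were under 10%, Control 2 (5.77%), 10CBD 1 (3.53%), 10CBD 3 (4.55%) and 20CBD 3 (5.54%); the other 8 held at least 12.8%. Since these 4 libraries stood apart, results that rest on them are given with and without them. Levels are in CPM, the counts of a gene scaled to a common library size with TMM normalization, and the order and ratios of different genes are given as CPM per kb of exon.

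All proximal marker genes that are no amino acid transporters were present in every library. The 8 general markers (Lrp2, Cubn and others) summed to 6102 to 9957 CPM per library, the 5 early markers to 1234 to 2057 CPM and the 6 late markers to 1265 to 1833 CPM. In bulk RNA fewer cells of a type and less RNA per cell cannot be told apart.

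Slc7a13 (chromosome 4, 19818725 to 19842218, plus strand, GRCm39) was the most abundant of the 10 genes. It encodes AGT1, the apical light chain for aspartate, glutamate and cystine of the late proximal tubule, and is expressed more in male than in female mouse kidney. Over all 12 libraries its mean of 549 CPM per kb was above that of 99.7% of the genes tested. In the Control group its level was 409 ± 50.1 CPM per kb (SD, n = 4). The next gene, Slc6a18, reached 67.7 ± 7.17 CPM per kb, so that Slc7a13 was 6.04 times as abundant, and the ranges of both did not overlap.

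Below it, levels formed a nearly continuous series. Slc6a19 had 57.5 ± 5.81, Slc3a1 53.0 ± 12.0 and Slc3a2 41.0 ± 4.37 CPM per kb in the Control group, followed by Slc7a9 with 27.5 ± 3.56, Slc1a1 with 26.8 ± 2.52, Slc7a8 with 21.7 ± 3.62 and Slc7a7 with 17.3 ± 2.57 (all SD, n = 4). Neighbours in this order overlapped in their ranges except Slc3a2 and Slc7a9, which differed by 1.49 times, and the ends of the series. Slc6a20a was last with 1.17 ± 0.14 CPM per kb, and Slc7a7 was 14.8 times as abundant. The early genes thus did not lie above the late ones as a class, since the late gene Slc1a1 and the early gene Slc7a9 stood side by side.

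**Figure D1:**
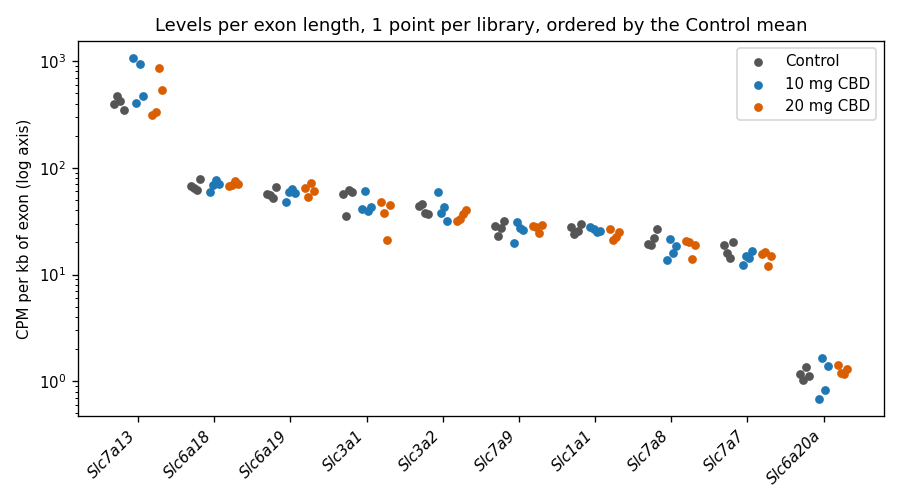
Levels of the 10 transporter genes in CPM per kb of exon (log axis), 1 point per library, coloured by group and ordered by the Control mean. Slc7a13 lies above 300 CPM per kb in every library and Slc6a20a below 2, with the other 8 genes between.

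None of the 10 genes was called in any of the 3 comparisons (edgeR quasi-likelihood test, Benjamini-Hochberg adjusted p under 0.1 over 17163 genes). The background was low: 0.0291% of all genes tested were called at 10 mg against Control, 0.303% at 20 mg against Control and 0.0% between the doses. At an unadjusted p under 0.05, the count was 1 of 10 at 10 mg, 0 at 20 mg and 0 between the doses, beside 5.67%, 8.45% and 6.31% of all genes, and limma-voom called 0 of the 10 in each comparison. DESeq2 also called 0 of the 10, beside 0.233%, 1.06% and 0.0699% of all genes. The median log2 fold change over the 10 genes was -0.04, -0.09 and 0.03, beside 0.01, 0.01 and -0.003 over all genes. For no gene of the 10 did the groups separate without overlap in any comparison, which 3.19%, 5.3% and 3.1% of all genes did.

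The intervals give the precision of these values. For 9 of the 10 genes the 95% interval of the fitted log2 fold change lay within 1 on either side of 0 in each comparison, the exception being Slc7a13, and for 5, 4 and 6 genes it lay within 0.5.

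**Figure D2:**
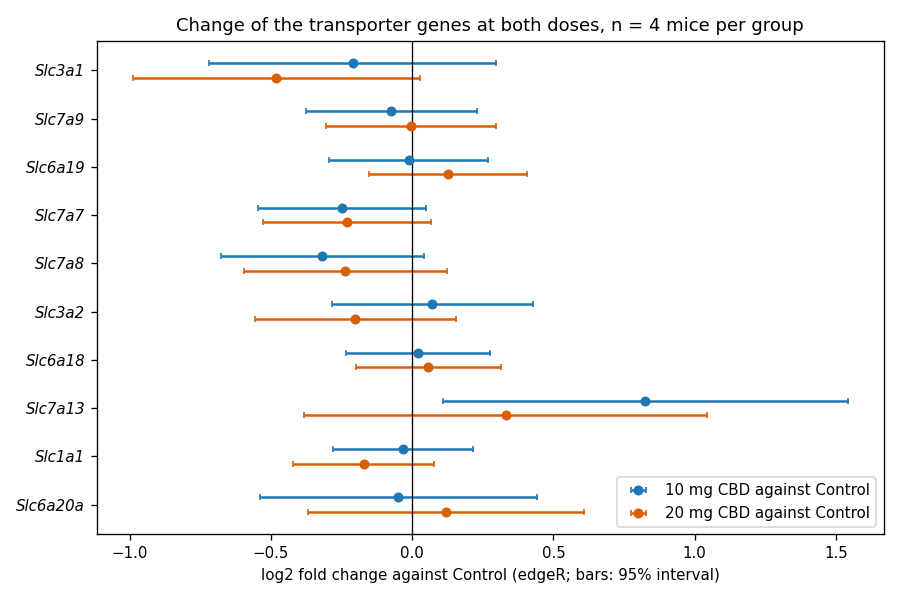
Fitted log2 fold changes of the 10 genes at 10 mg and 20 mg CBD against Control with their 95% intervals (edgeR, n = 4 mice per group). The interval of Slc7a13 at 10 mg, from 0.11 to 1.54, is the only one of the 20 that leaves out 0, and its adjusted p was 0.812.

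The apical cystine system came first in the comparison of roles. Slc3a1 (chromosome 17, 85335804 to 85374794, plus strand) encodes rBAT, the heavy chain that binds both Slc7a9 and Slc7a13, and its loss causes the kidney stone disease cystinuria. The 250 bases before the RefSeq start of Slc3a1 are shown because this gene had the most negative fold change of the 10 at 20 mg. Capitals mark the 9-base sequence CAAAGTCCA, of the kind bound by the proximal tubule factor HNF4A, and the TATA-type sequence TATAAA, on either strand (RefSeq sequence of build GRCm38.p6, matched at 1 place to GRCm39, chr17:85335525-85335774, plus strand).
Slc3a1: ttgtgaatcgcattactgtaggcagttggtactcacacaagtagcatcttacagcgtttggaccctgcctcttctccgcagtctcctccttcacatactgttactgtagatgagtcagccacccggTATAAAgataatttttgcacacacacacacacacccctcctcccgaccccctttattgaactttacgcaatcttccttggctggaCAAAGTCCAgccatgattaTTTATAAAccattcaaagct
CAAAGTCCA begins 39 bases before the start and occurred in 0.384% of 32851 promoter windows of the same length, while TATAAA begins 124 bases before it and again at 20 and 18 bases in overlapping matches on opposite strands, and occurred in 12.4%. The table held windows for 8 of the 10 genes (13 windows), without Slc6a18 and Slc7a13, and no other of these windows held either sequence. The half-site of the factor HNF1, GTTAAT, searched on both strands, was in 1 window each of Slc6a20a and Slc7a7, beside 6.43% of all windows. These matches describe the letters only, and binding was not measured here.

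Slc3a1 had 304.9, 190.7, 331.8 and 318.3 CPM in the 4 Control mice, 223.3, 324.8, 212.8 and 229.3 CPM in the 10CBD mice, and 260.4, 205.7, 112.9 and 241.4 CPM in the 20CBD mice. Control 2 lay far below the other controls, so the groups overlapped, although all 4 mice of the 20CBD group were below the Control median. The log2 fold change was -0.21 (SE 0.24) at 10 mg, with an adjusted p of 0.934 in edgeR. At 20 mg it was -0.48 (SE 0.24, 95% interval -0.99 to 0.03), with an adjusted p of 0.621 in edgeR. Neither difference passed the test. Without the 4 libraries of low mitochondrial share, the controls (304.9 to 331.8 CPM) lay above the 20CBD mice (205.7 to 260.4 CPM). This leaves fewer mice per group and drops the low control, and the share of all genes that separate so was not determined. The log2 fold change was then -0.43 at 20 mg (adjusted p = 0.288 in edgeR) and -0.20 at 10 mg (adjusted p = 0.973 in edgeR). Leaving out Control 2 alone gave -0.63 at 20 mg, and leaving out 20CBD 3 alone gave -0.28.

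Slc7a9 (chromosome 7, 35147668 to 35165461, plus strand) encodes b0,+AT, the early light chain that exchanges cystine and dibasic amino acids and is the other cystinuria gene. Its level was 83.8, 67.4, 81.2 and 92.7 CPM in Control, 58.6, 92.3, 80.6 and 77.4 CPM in 10CBD, and 83.5, 82.5, 71.8 and 86.1 CPM in 20CBD. The 3 groups overlapped, with the narrowest range in 20CBD, and the log2 fold change was -0.07 (SE 0.14) at 10 mg and -0.005 at 20 mg. The fitted value of the light chain was thus near 0 at 20 mg, where that of its heavy chain was -0.48, and the difference between both genes was not tested.

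The late light chain Slc7a13 varied most, with a coefficient of variation of 47.5% over the 12 libraries against 8.13% to 26.5% for the other 9 genes. It had 853.9, 1002.3, 900.5 and 743.8 CPM in Control, 2301.7, 857.4, 2028.7 and 1016.1 CPM in 10CBD, and 674.9, 719.1, 1853.8 and 1156.2 CPM in 20CBD. A pair of 10CBD mice and 1 20CBD mouse were high, and the other 5 treated mice lay about the Control range. The log2 fold change was 0.83 (SE 0.34) at 10 mg, with p = 0.0269 and an adjusted p of 0.812 in edgeR, and the exact two-sided permutation test of log2 CPM gave p = 0.114. At 20 mg it was 0.33 (95% interval -0.38 to 1.05), with an adjusted p of 0.855 in edgeR, and between the doses -0.49 (95% interval -1.21 to 0.22). Leaving out 1 library at a time gave 0.57 to 1.02 at 10 mg and -0.04 to 0.50 at 20 mg, where the value of -0.04 was that without 20CBD 3. Without a filter on low counts, Slc7a13 was called at 10 mg (log2 fold change 0.80, adjusted p = 0.00265 in edgeR), beside 0.827% of all genes.

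The 3 high mice were the 3 treated mice with a low mitochondrial share. Slc7a13 ranged from 1854 to 2302 CPM in these, and from 675 to 1156 CPM in the 5 other treated mice. Among the controls, the mouse of low share had 1002 CPM and the others 744 to 901 CPM. Without the 4 libraries of low share, the log2 fold change of Slc7a13 was 0.17 at 10 mg, 0.03 at 20 mg and -0.13 between the doses. Reads on no gene were taken as a share of the reads on genes, on no gene or ambiguous, without those aligned to several places. This share was 17.0% to 19.9% in the 3 treated libraries of low mitochondrial share, 16.1% in Control 2 and 12.1% to 16.3% in the other 8 libraries. The part of either measure in the level of Slc7a13 was not tested. Late marker genes summed to 1276 to 1527 CPM in the libraries of low share and 1265 to 1833 CPM in the others. The medians were 1452 and 1547 CPM. Most of this sum was Atp11a, with group means of 816 to 1044 CPM, so it does not show the other late markers. Medians of other lists differed between the libraries of low share and the others as well, although the ranges overlapped for each. The early markers had 1409 against 1743 CPM, the general proximal markers 7065 against 7720 and the collecting duct principal cell markers 258 against 168. The immune markers had 191 against 147 and the endothelial markers 222 against 255. The part of these cells in the levels of the transporters was not tested.

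**Figure D3:**
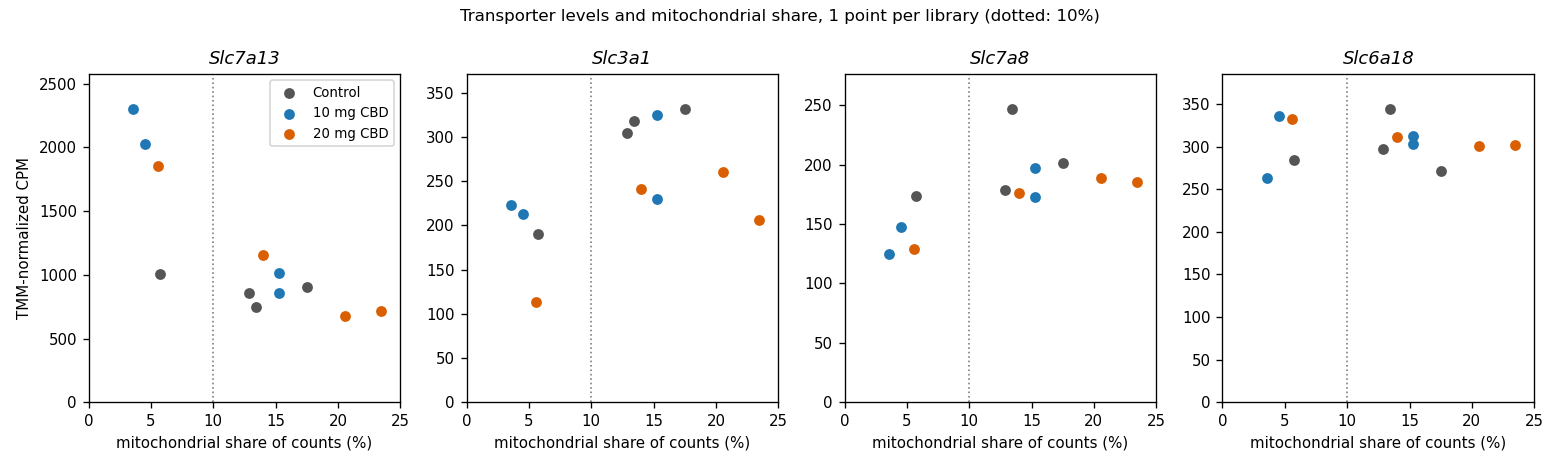
CPM of Slc7a13, Slc3a1, Slc7a8 and Slc6a18 against the mitochondrial share of counts, 1 point per library, coloured by group, with a dotted line at 10%. The 3 points of Slc7a13 from 1854 to 2302 CPM are treated mice to the left of the line, Slc3a1 and Slc7a8 are low there, and Slc6a18 shows no such step.

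As a description over the 4 libraries of low share and the 8 others, the mean log2 level of Slc7a13 was 1.01 higher in the former, a difference exceeded in size by 2.52% of all genes tested. Slc3a1 was 0.61 lower (113 to 223 against 206 to 332 CPM), Slc6a20a 0.53 lower, Slc7a8 0.43 lower, Slc7a9 0.29 lower and Slc7a7 0.27 lower. Slc3a2 was 0.32 higher. Slc6a19, Slc6a18 and Slc1a1 differed by 0.01, -0.01 and -0.07. None of the 10 genes separated the 2 kinds of library without overlap, which 12.9% of all genes did. With the mitochondrial share, as a fraction, added to the fit, 3 of the 10 genes were called at 20 mg against Control in edgeR, beside 8.08% of all genes. These were Slc3a1 with a log2 fold change of -0.66 (adjusted p = 0.0334), Slc7a8 with -0.36 (adjusted p = 0.0881) and Slc7a13 with 0.46 (adjusted p = 0.09995). The value of Slc7a13 lay just under the threshold. In the fit without the covariate its log2 fold change at 20 mg was -0.04 when 20CBD 3 was left out. The fit with the covariate was not repeated without single libraries.

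The ratio of the late light chain to its heavy chain moved most. Slc7a13 per kb was 13.3 to 41.4 times Slc3a1 per kb in the 4 libraries of low share and 5.89 to 12.1 times in the other 8. Within those 8 libraries the log2 levels of both genes had r = -0.08 (exact permutation p = 0.843, adjusted 0.931) and rho = 0.07 (exact permutation p = 0.882, adjusted 0.935). Over all 12 libraries r was -0.56 (permutation p = 0.0852, adjusted 0.134), and with group means removed it was -0.70 (permutation p = 0.0133, adjusted 0.0266). Without the 2 libraries farthest from the median of Slc3a1, r for this pair was -0.42. Slc7a13 itself fell into clusters, of 675 to 1156 and of 1854 to 2302 CPM, so no conclusion is drawn from these pooled values. Slc3a1 and its early partner Slc7a9 had r = 0.55 over 12 libraries (permutation p = 0.1001, adjusted 0.134) and rho = 0.69 (permutation p = 0.0175, adjusted 0.0698). With group means removed, r was 0.68 (permutation p = 0.0276, adjusted 0.0368). Without the 2 libraries farthest from the median of Slc3a1, r was 0.66, and within the 8 libraries it was 0.52 (exact permutation p = 0.187). Adjustment was over the 4 heavy and light chain pairs examined.

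The genes whose log2 levels were most like those of 1 early and 1 late light chain over the 12 libraries are given as a description. For Slc7a13 these were Ptrhd1 (r = 0.97), Cdk5rap3 (r = 0.97) and Gm37893 (r = 0.97), which were high in the same libraries, Cdk5rap3 with 76.3 to 124 CPM in the 4 libraries of low mitochondrial share and 45.5 to 74.3 CPM in the others. Within the 8 other libraries r was 0.79, 0.89 and 0.85. For Slc7a9 the 3 were Gm48231 (r = 0.96), Gabbr2 (r = 0.92) and Acd (r = 0.92), of which Gm48231 and Gabbr2 stayed below 1 CPM, and within the 8 libraries r was 0.71, 0.54 and 0.57. All of these genes were read in the same libraries, with the same depth and mitochondrial share.

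The apical carriers of neutral amino acids had similar ranges in all groups. Slc6a19 (chromosome 13, 73827860 to 73852984, minus strand) encodes B0AT1, the main early carrier of neutral amino acids, and its loss causes Hartnup disorder. It had 282.7, 277.4, 262.7 and 330.0 CPM in Control, 241.2, 293.9, 317.4 and 289.7 CPM in 10CBD, and 326.6, 267.4, 359.0 and 305.5 CPM in 20CBD. The groups overlapped throughout, with log2 fold changes of -0.01 at 10 mg and 0.13 at 20 mg.

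Slc6a18 (chromosome 13, 73809871 to 73826145, minus strand) is its neighbour, 1714 bases away on the same strand, and encodes B0AT3, a late carrier of glycine and other neutral amino acids. It was the steadiest of the 10 genes, with 297.3, 284.4, 271.7 and 344.3 CPM in Control, 262.6, 303.0, 336.1 and 312.5 CPM in 10CBD, and 300.7, 302.2, 331.9 and 311.3 CPM in 20CBD. Its log2 fold change was 0.02 at 10 mg and 0.06 at 20 mg. Per kb, Slc6a19 was 0.781 to 0.959 times Slc6a18 in all 12 libraries, a narrow span beside that of Slc7a13 to Slc3a1, and it stayed narrow in the libraries of low mitochondrial share.

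Slc6a20a (chromosome 9, 123463835 to 123508170, minus strand) belongs to a pair of mouse copies of the carrier SIT1, which takes up proline and other imino acids. It ranged from 5.70 to 13.8 CPM over the 12 libraries, both in the 10CBD group, and its log2 fold changes were -0.05 and 0.12. Its neighbouring copy Slc6a20b was 13.8 to 30.6 times as abundant per kb. Reads that match both copies cannot be assigned to either, so the level of each is uncertain.

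Slc1a1 (chromosome 19, 28812449 to 28891360, plus strand) encodes EAAC1, the late apical carrier of glutamate and aspartate. It had 236.9, 206.8, 218.9 and 256.2 CPM in Control, 236.7, 227.8, 214.1 and 219.8 CPM in 10CBD, and 229.2, 180.7, 190.7 and 215.0 CPM in 20CBD. The groups overlapped, with log2 fold changes of -0.03 at 10 mg and -0.17 at 20 mg.

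The basolateral step is made by 2 light chains and their heavy chain. Slc7a8 (chromosome 14, 54959630 to 55019649, minus strand) encodes LAT2, an exchanger of neutral amino acids, and had 178.2, 173.7, 201.5 and 246.9 CPM in Control, 125.1, 196.8, 147.4 and 172.7 CPM in 10CBD, and 188.7, 185.2, 128.9 and 176.2 CPM in 20CBD. In each group, Control included, the lowest mice were those of low mitochondrial share. The log2 fold change was -0.32 (SE 0.17) at 10 mg, with an adjusted p of 0.872 in edgeR, and -0.24 at 20 mg.

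Slc7a7 (chromosome 14, 54606895 to 54655603, minus strand) encodes y+LAT1, the exit path of dibasic amino acids, whose loss causes lysinuric protein intolerance. It ranged from 87.2 to 121.4 CPM in Control, from 75.3 to 101.3 CPM in 10CBD and from 73.0 to 99.4 CPM in 20CBD. The groups overlapped, and the log2 fold change was -0.25 (SE 0.14) at 10 mg, with an adjusted p of 0.875 in edgeR, and -0.23 at 20 mg.

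Slc3a2 (chromosome 19, 8684245 to 8701108, minus strand) encodes 4F2hc, the heavy chain of both, which is made in many cell types. It ranged from 172.6 to 212.2 CPM in Control, from 149.6 to 276.5 CPM in 10CBD and from 148.6 to 187.4 CPM in 20CBD, and its log2 fold changes were 0.07 and -0.20. Slc7a7 per kb was 0.209 to 0.353 times Slc3a2 per kb in the 4 libraries of low mitochondrial share and 0.374 to 0.540 times in the other 8. For Slc7a8 these ratios were 0.228 to 0.413 and 0.438 to 0.722. Both light chains were thus low against their heavy chain in the same 4 libraries. Over all 12 libraries, Slc3a2 and Slc7a8 had r = -0.52 (permutation p = 0.0955, adjusted 0.134) and rho = -0.42 (permutation p = 0.177, adjusted 0.237), and within the 8 libraries r was 0.03 (exact permutation p = 0.931). With group means removed, r was -0.72 (permutation p = 0.00838, adjusted 0.0266) and rho was -0.73 (adjusted 0.0189). Slc3a2 and Slc7a7 had r = -0.33 (permutation p = 0.291) and rho = -0.31 (permutation p = 0.332), r = 0.19 within the 8 libraries (exact permutation p = 0.622), and r = -0.54 with group means removed (permutation p = 0.0756, adjusted 0.0756). Without the 2 libraries farthest from the median of Slc3a2, r over the rest was -0.20 for Slc7a8 and -0.02 for Slc7a7. The values with group means removed were not refitted without those libraries. Leaving out the extremes also narrows the range, so no conclusion is drawn from this.

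**Figure D4:**
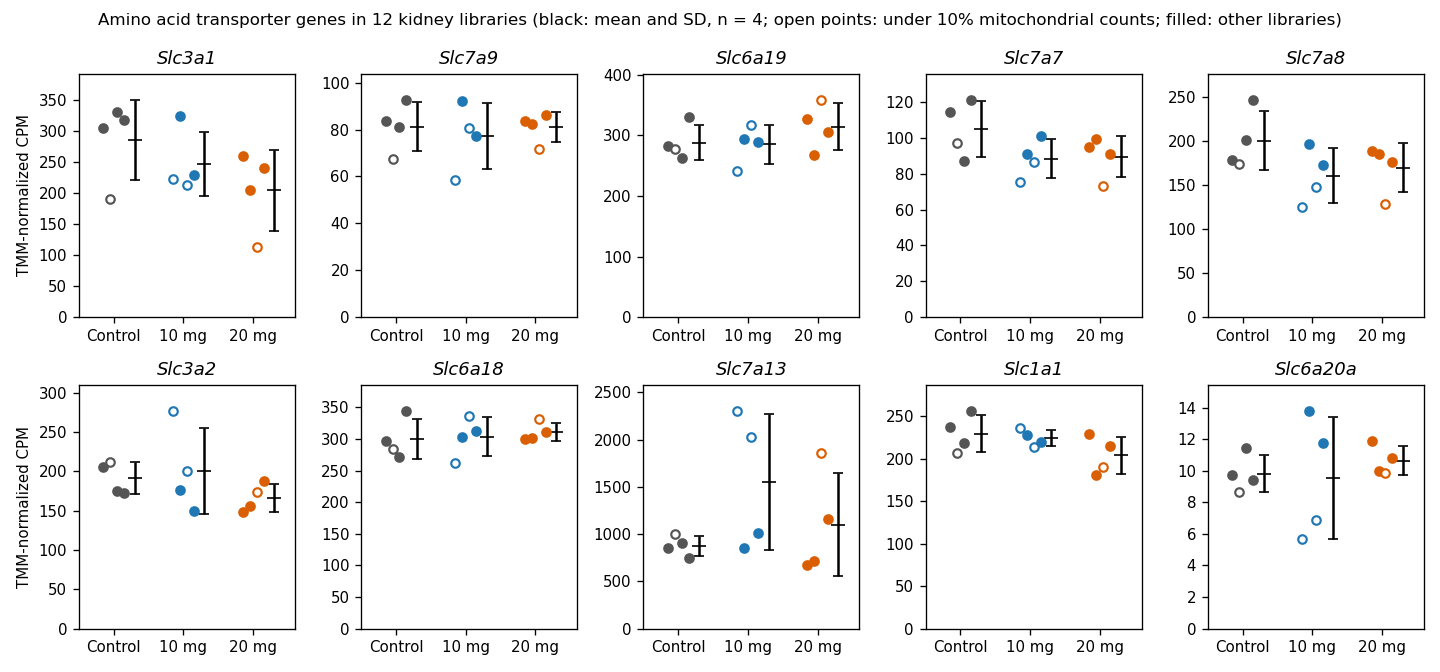
CPM of the 10 genes in the 12 libraries by group, with the mean and SD in black (n = 4); open points are the 4 libraries under 10% mitochondrial counts. The groups overlap for every gene, and the 3 high points of Slc7a13 are open ones.

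Early and late genes were set against each other as the mean log2 CPM of Slc7a9 and Slc6a19 minus that of Slc7a13, Slc6a18 and Slc1a1. This measure is not scaled by gene length, so only its differences between libraries can be read, not its size or sign. The difference was -1.36 ± 0.12 in Control (SD, n = 4, -1.51 to -1.20), -1.64 ± 0.38 in 10CBD (-2.14 to -1.24) and -1.33 ± 0.22 in 20CBD (-1.61 to -1.12). The groups overlapped, and the spread was wider in both treated groups. The 4 libraries of low mitochondrial share, with -2.14 to -1.51, lay below the other 8, with -1.46 to -1.12.

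The pattern rested on Slc7a13. With Slc7a13 left out of the late genes, an alternative chosen after the data were seen, the difference was -0.78 ± 0.04 in Control, -0.82 ± 0.17 in 10CBD and -0.66 ± 0.01 in 20CBD (SD, n = 4). The 20CBD mice then lay between -0.673 and -0.647 and the controls between -0.827 and -0.739. These ranges did not overlap, but the values are a description of 4 chosen genes without a test.

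**Figure D5:**
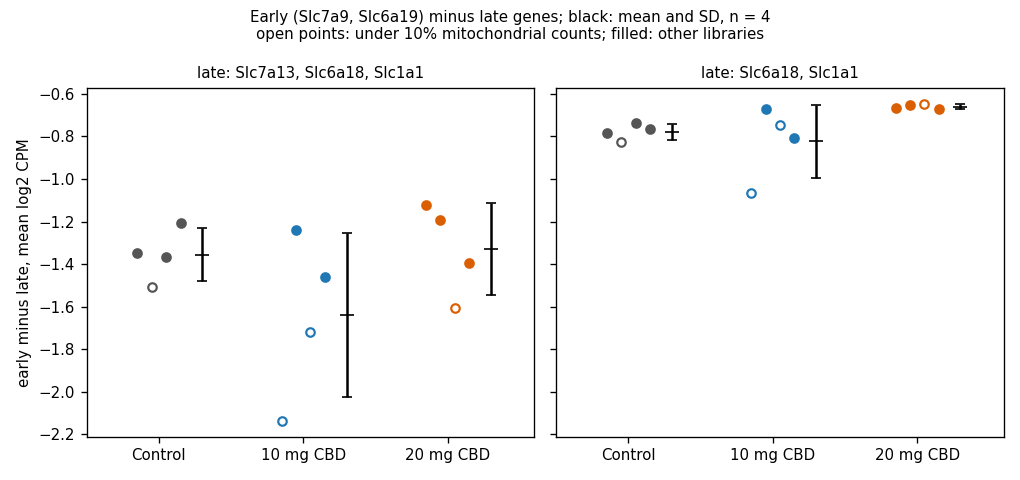
Early minus late level (difference of mean log2 CPM) per library and group, with Slc7a13 among the late genes (left) and without it (right); black marks are the mean and SD (n = 4) and open points the libraries under 10% mitochondrial counts. On the left the lowest point of each group is an open one, and on the right the 20CBD points lie close together above the controls.

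Other amino acid carriers and their partners were counted for comparison. Of 28 listed genes, 24 were tested, and 0 were called at 10 mg, 2 at 20 mg, both higher, and 0 between the doses (edgeR), beside 0.0291%, 0.303% and 0.0% of all genes. An unadjusted p under 0.05 was found for 6, 5 and 5 of the 24, beside 5.67%, 8.45% and 6.31% of all genes. Slc38a3, the basolateral glutamine carrier SNAT3 of the proximal tubule, had 51.7, 49.8, 57.4 and 73.0 CPM in Control, 52.3, 83.9, 61.3 and 66.8 CPM in 10CBD, and 106.4, 92.3, 103.7 and 92.7 CPM in 20CBD. All 4 mice of the 20CBD group lay above all controls, as 2.67% of all genes did, and above all 10CBD mice, as 1.7% did. Slc38a3 rose at 20 mg by a log2 fold change of 0.77 (SE 0.15, adjusted p = 0.0763 in edgeR), with an adjusted p of 0.000464 to 0.261 over 23 alternatives. The call was lost in 9 of the 12 fits that left out 1 library (adjusted p = 0.107 to 0.261 in edgeR), all but those without Control 4, 10CBD 1 or 10CBD 2, and the log2 fold change stayed at 0.70 to 0.90. Between the doses its log2 fold change was 0.58 (adjusted p = 0.758 in edgeR).

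Slc43a1, the carrier LAT3 for large neutral amino acids, was low, at 1.51 ± 0.19 CPM in Control, 2.31 ± 0.19 CPM in 10CBD and 3.48 ± 0.66 CPM in 20CBD (SD, n = 4). It rose at 20 mg by a log2 fold change of 1.20 (SE 0.21, adjusted p = 0.0357 in edgeR, 0.000377 to 0.137 over 23 alternatives). That call was lost in 6 of the 12 fits without 1 library, any control, 20CBD 2 or 20CBD 3. At 10 mg the log2 fold change was 0.60 with an adjusted p of 0.812 in edgeR, although all 4 mice lay above all controls, as 1.55% of all genes did. The 3 groups of Slc43a1 were thus in the order of the dose, with no call at the lower dose.

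Cltrn, Slc16a10 and Slc6a20b were not called in any comparison. Cltrn, collectrin, which brings Slc6a19 to the brush border of the kidney, had log2 fold changes of -0.12 and -0.08. Slc16a10, the basolateral carrier TAT1 of aromatic amino acids, had 33.2 to 36.5 CPM in Control, 21.5 to 32.3 CPM in 10CBD and 23.5 to 33.7 CPM in 20CBD, and its log2 fold change was -0.36 at 10 mg (adjusted p = 0.830 in edgeR) and -0.35 at 20 mg (adjusted p = 0.570 in edgeR). Its 10CBD mice lay below all controls, as 1.64% of all genes did. Slc6a20b had log2 fold changes of 0.02 and -0.19.

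Proximal genes that are no amino acid transporters gave 1 call. Slc5a2, the early glucose carrier SGLT2, fell by 0.61 on the log2 scale at 20 mg (SE 0.12, adjusted p = 0.0820 in edgeR), a call lost without any 1 of the 4 Control or 4 20CBD libraries (adjusted p = 0.108 to 0.273), while the other 4 early, 6 late and 8 general markers were not called in any comparison. Among the latter, Lrp2, the endocytic receptor megalin, differed by -0.76 on the log2 scale at 20 mg (unadjusted p = 0.000841, adjusted p = 0.173 in edgeR and 0.00597 in DESeq2). The 20CBD and Control groups of Lrp2 did not overlap, which held in either direction for 5.3% of all genes. The early amino acid transporters beside it, Slc7a9 and Slc6a19, had -0.005 and 0.13. Markers of other cells differed in level as well. The stroma and smooth muscle list summed to 154 to 172 CPM in Control, 158 to 221 CPM in 10CBD and 196 to 253 CPM in 20CBD. Of its 4 genes, 1 was called at 20 mg (Myh11, a smooth muscle myosin, log2 fold change 0.71, adjusted p = 0.0760 in edgeR, lost in 9 of the 12 fits without 1 library). The Control and 20CBD means were 74.7 and 122 CPM for Myh11 and 35.8 and 44.5 CPM for Acta2. They were 40.0 and 47.3 CPM for Pdgfrb and 9.93 and 9.92 CPM for Col1a1. The sum thus follows mostly Myh11 and does not show each of the other genes. The list of the distal convoluted and connecting tubule summed to 622 to 1034 CPM in Control, 669 to 810 CPM in 10CBD and 575 to 646 CPM in 20CBD, with 0 of 4 genes called, all 4 fold changes negative and 3 with an unadjusted p under 0.05 at 20 mg in edgeR (Calb1 -0.91, Trpv5 -0.60 and Slc12a3 -0.48 on the log2 scale). Of these, Calb1 was called in DESeq2 (adjusted p = 0.0134). The adipocyte list summed to 4.84 to 81.2 CPM in Control, 0.452 to 29.0 CPM in 10CBD and 0.120 to 15.4 CPM in 20CBD, with 0 of 3 tested genes called. At 20 mg all 3 had a negative fold change (median -3.17 on the log2 scale) and an unadjusted p under 0.05 in edgeR, beside 8.45% of all genes. Levels were low, and each of the 4 listed genes had 0 counts in at least 1 20CBD library. The part of these cells in the levels of the transporters was not tested.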

How the data were processed

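RNA-Seq counts were analysed for 12 kidney libraries in 3 groups of 4 mice, grouped by the sample records. The authors trimmed reads with Flexbar, mapped them with STAR (2.7.5c) to GRCm39 and counted them with HTSeq (1.99.2). The deposited files hold raw counts per gene, without normalization. The tool's summary lines were left out of library sizes and tests. The annotation release, the strand setting and the use of molecular identifiers are not given in the sources used here. Identifiers were matched to GENCODE vM39, which held 99.0% of them and 99.95% of the counts. The total per library had a median of 18193787.5. Counting error is small at these depths for all members but Slc6a20a (129 to 232 counts), and tests rest on the spread between mice.

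Genes were kept by filterByExpr (17163), normalized by TMM and fitted over all libraries by edgeR 4.0.16 in R 4.3.3, with a mean per group. Genes with a Benjamini-Hochberg adjusted p-value under 0.1 across the 17163 genes were called. Permutation tests used SciPy, two-sided; 4 mice against 4 allow 70 arrangements and no p below 0.0286, and correlations over 12 libraries used 100000 resamples. Log2 CPM used a prior count of 2. The fit was tested on simulated data. Alternatives were RLE and upper-quartile scaling, DESeq2 1.42.0, limma-voom (limma 3.58.1), other filters, a replicate block, a fit restricted to the groups of a comparison, the mitochondrial share as a covariate, leaving out mitochondrial genes or libraries, and an adjusted p under 0.05. The members and gene lists were chosen with earlier results of these data known. Named were all 10 members, Cltrn, Slc16a10 and Slc6a20b, every listed carrier that was called, and the 3 genes most correlated with Slc7a9 and Slc7a13. A further gene of this rule is not reported here. Slc5a2, Myh11, Lrp2, Calb1, Trpv5 and Slc12a3 were named after their values were seen. Replicate numbers did not pair the libraries.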

Additional observations from a re-analysis of the deposited data

Results flagged for a closer look

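The level of Slc3a1 in Control replicate 2 was far from the other controls, 190.7 CPM against 304.9 to 331.8 CPM. Its gap to the nearest control was 0.848 of the group's whole range, above Dixon's 95% critical value for 4 samples. This was 1 of the 30 sets of 4 examined (10 genes in 3 groups), and chance alone flags about 1 in 20. The same library had a mitochondrial share of 5.77%, against 12.8% to 17.5% in the other controls, and the part of that share in the level was not tested.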

How the results depend on the processing

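The log2 fold changes of the 10 genes kept their direction and their call in 646 values under alternatives, changed direction in 40 and gained a call in 4, and no change of direction was called; the cause was not tested. In 10 mg against Control, where edgeR called 5 genes, DESeq2 called 40, no filter on low counts 331 (1 of the 10 genes, Slc7a13), the mitochondrial share as covariate 15, the fit without the libraries of low mitochondrial share 26 and an adjusted p under 0.05 3 genes, and leaving out 1 library gave 2 to 8. In 20 mg against Control, where edgeR called 52 genes, these counts were 182, 416, 1386 (3 of the 10 genes), 107 and 23 for DESeq2, no filter, the covariate, the fit without those libraries and the stricter threshold, and 14 to 54 without 1 library. Between the doses they were 12, 256 and 62 for DESeq2, no filter and the covariate, against 0 in edgeR. The replicate block called 27 genes at 20 mg and 0 of the 10 in each comparison, and same-numbered libraries did not deviate together (r = -0.33 to 0.32, over 0.1 in 4 of 12 pairs), so the numbers were not taken as pairs; under the block Slc38a3 and Slc43a1 had adjusted p = 0.152 and 0.112 in edgeR at 20 mg. Without Slc7a13 the early minus late level was -0.78, -0.82 and -0.66.

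The log2 fold changes that turned direction were the following. With the covariate, 10 mg against Control gave -0.024 for Slc3a2 and 0.011 for Slc6a20a, 20 mg gave -0.00066 for Slc6a20a, and between the doses Slc7a9 had -0.045, Slc7a7 -0.10, Slc7a8 -0.12 and Slc6a20a -0.012. Without the libraries of low share, 10 mg gave -0.18 for Slc3a2, 0.32 for Slc6a20a and -0.017 for Slc6a20b, and between the doses Slc7a9 had -0.0082, Slc7a7 -0.0085, Slc7a8 -0.0055, Slc3a2 0.013, Slc6a18 -0.00896 and Slc6a20a -0.22. Without a filter, 10 mg gave -0.0067 for Slc6a18 and -0.0046 for Slc6a20b, and at 20 mg Slc7a9 had 0.00082 in limma-voom and 0.00079 with at least 10 counts in every library. Leaving out 1 library, 10 mg against Control gave -0.081 to 0.021 for Slc1a1, -0.13 to 0.19 for Slc3a2, -0.034 to 0.091 for Slc6a18, -0.069 to 0.058 for Slc6a19, -0.28 to 0.13 for Slc6a20a, -0.17 to 0.036 for Slc7a9 and -0.0401 to 0.059 for Slc6a20b. At 20 mg it gave -0.043 to 0.50 for Slc7a13 and -0.086 to 0.062 for Slc7a9, and between the doses -0.025 to 0.0905 for Slc6a18, -0.016 to 0.40 for Slc6a20a, -0.051 to 0.10 for Slc7a7, -0.021 to 0.20 for Slc7a8 and -0.042 to 0.17 for Slc7a9.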
